A study of Homo sapiens with 3 samples.

Results

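The genes examined here encode the subunits of the human SWI/SNF chromatin remodelling complexes, which are the complexes that ARID1B itself belongs to. The set holds 31 genes, chosen by symbol, out of 19866 protein-coding genes, and all 31 were found in the gene table. Peaks of ARID1B chromatin immunoprecipitation sequencing (ChIP-seq) were assigned to a gene when they lay within 1000 bp of either gene end, inside the gene, or within 250 kb of the gene body. Positions refer to hg38 and count from 1.

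The study located ARID1B on chromatin of HEK293FRT cells, which derive from HEK293, an established human embryonic kidney line. It held 2 ARID1B ChIP-seq replicates and 1 input, and the labels give no genotype and no treatment for any of them. The peaks of both replicates were used, while the input was not analysed here. Nothing in the labels tells whether separate cultures were used, so the spread between replicates may be technical. Replicate 1 had 1792 peaks and replicate 2 had 1820, each with a score from the authors whose median was 74 and 75. The scale of the score is not stated in the sources used here, so its rank within its own list is given beside it, and rank 1 is the highest score. Peaks of both replicates that overlapped by at least 1 bp were joined into 1 shared region. This gave 1313 shared regions, 475 regions of replicate 1 alone and 503 of replicate 2 alone. Peak lists hold no expression values, so the labelled cell type was not checked against marker genes.

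SWI/SNF complexes use the energy of ATP to slide or evict nucleosomes and so open chromatin at enhancers and promoters. They occur as BAF, which holds ARID1A or ARID1B, as PBAF, which holds ARID2, PBRM1, BRD7 and PHF10, and as non-canonical BAF (ncBAF), which holds BRD9 and BICRA or BICRAL. Around a shared core, most positions can be filled by one of a few paralogues, so that the composition differs between cell types. ACTL6B, DPF1, DPF3 and SS18L1, for instance, are known from the neuronal form of the complex.

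ARID1B peaks were found at few genes of its own complex, and also at few protein-coding genes as a whole. A shared region lay within 1000 bp of an end of 1 of the 31 genes, SMARCD2, where 1.05% of all protein-coding genes had one. With peaks of either replicate it was 3 of 31, with ARID1A and ACTB added, against 1.89%. Inside the gene and away from its ends, 2 of 31 had a shared region, ARID1A and BCL11B, against 2.25% of all protein-coding genes. Peaks of either replicate lay inside 4 of 31, with ARID1B and BICRA added, against 3.56%. Within 250 kb, 11 of 31 had a shared region, against 23.3%. With a count of 1 or 2 genes these shares (3.23% and 6.45%) rest on single members, and no test was made, because the genes were chosen with earlier results of these data known.

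**Figure D1:**
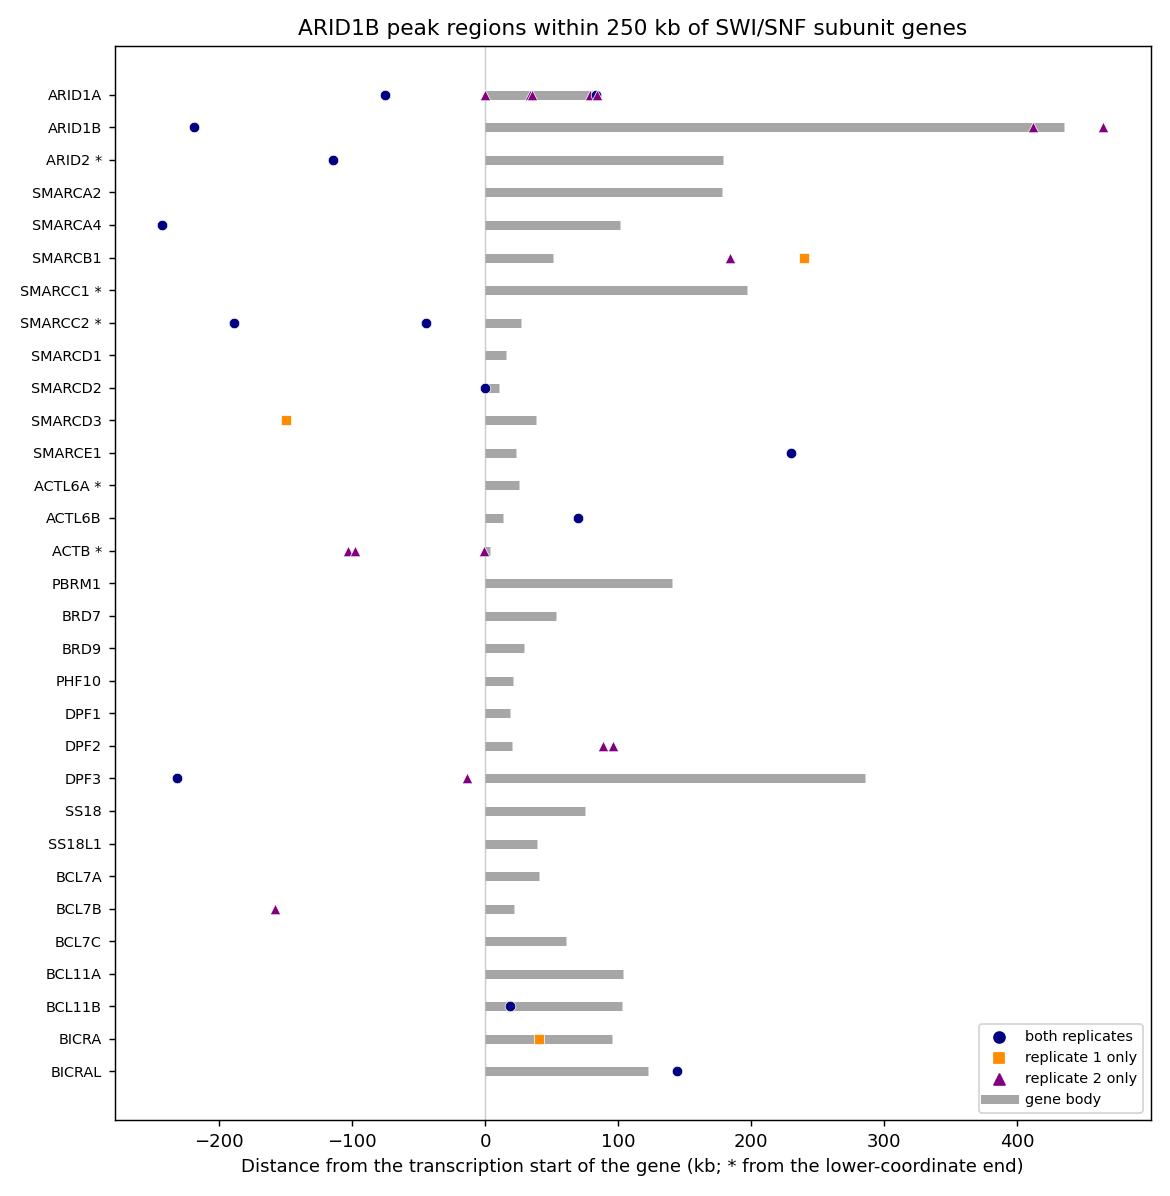
Each row is 1 of the 31 genes. The grey bar is the gene body, and the horizontal axis gives the distance in kb from the transcription start, or, for genes with an asterisk, from the end with the lower coordinate. Circles are regions found in both replicates, squares regions of replicate 1 alone and triangles regions of replicate 2 alone. A reader should see 11 of 31 genes with a circle, the row of triangles on ARID1A, and 14 genes with no symbol.

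SMARCD2 was reached at its transcription start. It encodes one of the BAF60 proteins (SMARCD1, SMARCD2 and SMARCD3), which sit in the core of the complex and bridge it to transcription factors. The region at chr17:63842666-63842932 was 267 bp wide and covered the annotated start at 63842685 on the minus strand. Its score was 81 in replicate 1 (rank 793) and 153 in replicate 2 (rank 335), so it was found by both replicates and stood close to the middle of the first list and in the upper part of the second. It reached an end of no other protein-coding gene. Neither paralogue had such a region. The nearest shared region to SMARCD1 lay 2063.1 kb away, and the nearest to SMARCD3 1105.2 kb away. SMARCD3 had 1 region in its flank, at chr7:151426497-151426701 and 149.3 kb before its start, with a score of 43 in replicate 1 and no peak in replicate 2.

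The promoter windows of the 3 paralogues are shown because only that of SMARCD2 lay under a shared region. Each runs from 250 bases before to 50 after the outermost annotated start and is taken from RefSeq on GRCh38.p14, the assembly that hg38 names. The windows lie at chr17:63842636-63842935 on the minus strand (SMARCD2), chr12:50085092-50085391 on the plus strand (SMARCD1) and chr7:151277100-151277399 on the minus strand (SMARCD3). The region covered bases 4 to 270 of the SMARCD2 window. Capitals mark matches, on either strand, to a set of short motifs. These were the AP-1 motif TGANTCA, the GC box motif GGGCGG, the box motif CCAAT of that name, the E-box motif CACGTG, the TEAD motif GGAATG, the TATA box motif TATAAA and the ETS motif CCGGAAG. The short motif CCGGA, which also lies within the ETS motif, was added after the sequences were seen.
SMARCD2: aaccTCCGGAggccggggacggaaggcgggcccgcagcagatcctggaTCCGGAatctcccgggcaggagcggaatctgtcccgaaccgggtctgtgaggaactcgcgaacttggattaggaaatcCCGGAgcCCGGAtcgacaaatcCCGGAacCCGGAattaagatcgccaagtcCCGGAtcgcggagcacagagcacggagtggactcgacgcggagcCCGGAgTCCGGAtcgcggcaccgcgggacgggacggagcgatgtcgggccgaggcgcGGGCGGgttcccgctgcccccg
SMARCD1: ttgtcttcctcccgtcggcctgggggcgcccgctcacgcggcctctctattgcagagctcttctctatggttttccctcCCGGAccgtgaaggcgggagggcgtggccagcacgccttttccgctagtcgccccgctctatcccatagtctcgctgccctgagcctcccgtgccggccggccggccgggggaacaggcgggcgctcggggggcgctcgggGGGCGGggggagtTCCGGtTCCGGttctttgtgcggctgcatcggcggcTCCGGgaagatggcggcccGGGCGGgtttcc
SMARCD3: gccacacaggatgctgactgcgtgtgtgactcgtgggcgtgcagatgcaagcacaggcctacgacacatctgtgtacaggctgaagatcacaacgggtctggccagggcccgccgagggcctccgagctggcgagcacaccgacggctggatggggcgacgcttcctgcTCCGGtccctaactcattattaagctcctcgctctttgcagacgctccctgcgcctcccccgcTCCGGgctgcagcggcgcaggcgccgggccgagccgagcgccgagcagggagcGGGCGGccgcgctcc

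Apart from CCGGA, each of the 3 windows matched only the GC box, with 1 match in SMARCD2, 2 in SMARCD1 and 1 in SMARCD3. A GC box was found in 45.0% of the 35116 promoter windows of the same length, alternative starts included. Among the 26 subunit genes with a window, 22 had one in the outermost window, the only one counted per gene. These shares therefore cover unlike sets of windows. The SMARCD2 window had many copies of CCGGA. It held 12 matches, counting strands separately, in 9 separate stretches, of which 3 (TCCGGA) matched on both strands, and all 12 lay under the region. The stretch at bases 5 to 10 lay under the replicate 2 peak alone, because the replicate 1 peak spanned chr17:63842681-63842895. SMARCD1 had 4 matches and SMARCD3 2, and 4 was the highest count among the outermost windows of the other 25 subunit genes. Over all 35116 windows the median was 0 matches, 41.2% had at least 1, and 3 windows (0.00854%) had 12 or more. The other 2 of these, at LOC102723335 with 14 and NCAM2 with 13, were overlapped by no peak of either replicate. Such a match is a description of the letters, and nothing about a bound factor follows from it.

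ARID1A and ARID1B, which compete for the same place in BAF and whose products are mutually exclusive there, had different patterns. ARID1A had 6 regions at an end or inside its 86.1 kb body, and ARID1B had 1 in 434.8 kb. Almost all of these were peaks of replicate 2 alone. Of the 6 at ARID1A, 5 were found in replicate 2 alone and 1 in both. The single region inside ARID1B was also found in replicate 2 alone.

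At the start of ARID1A, a peak at chr1:26695548-26695777, 238 bp upstream of the gene, scored 46 in replicate 2 (rank 1377), and replicate 1 had no peak there. It also overlapped LOC124900417, within 1000 bp of an end of that gene. LOC124900417 is annotated as protein-coding and overlaps the start of ARID1A. A pair of peaks followed inside ARID1A, at chr1:26729674-26729870 with a score of 64 and at chr1:26731195-26731444 with a score of 37. They lay 33.7 and 35.2 kb from the transcription start, and replicate 1 had neither. Another 3 regions were packed into 5.99 kb near the transcription end. The first of them, chr1:26774380-26774892, scored 59 in replicate 2 and was not found in replicate 1. The middle one, chr1:26779140-26779720, was the shared region, with a score of 21 in replicate 1 (rank 1754) and 54 in replicate 2 (rank 1257). The last, chr1:26779861-26780373, scored 48 in replicate 2, and the nearest replicate 1 peak lay 141 bp away. All replicate 2 scores at an end or inside ARID1A were thus below the median of its list, and the replicate 1 score was among the lowest of its list.

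Few other genes carried as many regions as ARID1A. In all, 12 protein-coding genes had 6 or more regions at an end or inside, and ARID1A was the shortest of them. The next shortest, ZNF608, was 111.9 kb long and the longest, PDE4D, 1553.1 kb. The other 11 had at most 2 regions of replicate 2 alone. With 5 such regions ARID1A was the only protein-coding gene with 4 or more (0.00503% of genes), the next being HOXA3 with 3, and 14 genes had 2. This count was chosen after the regions were seen and is a description.

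**Figure D2:**
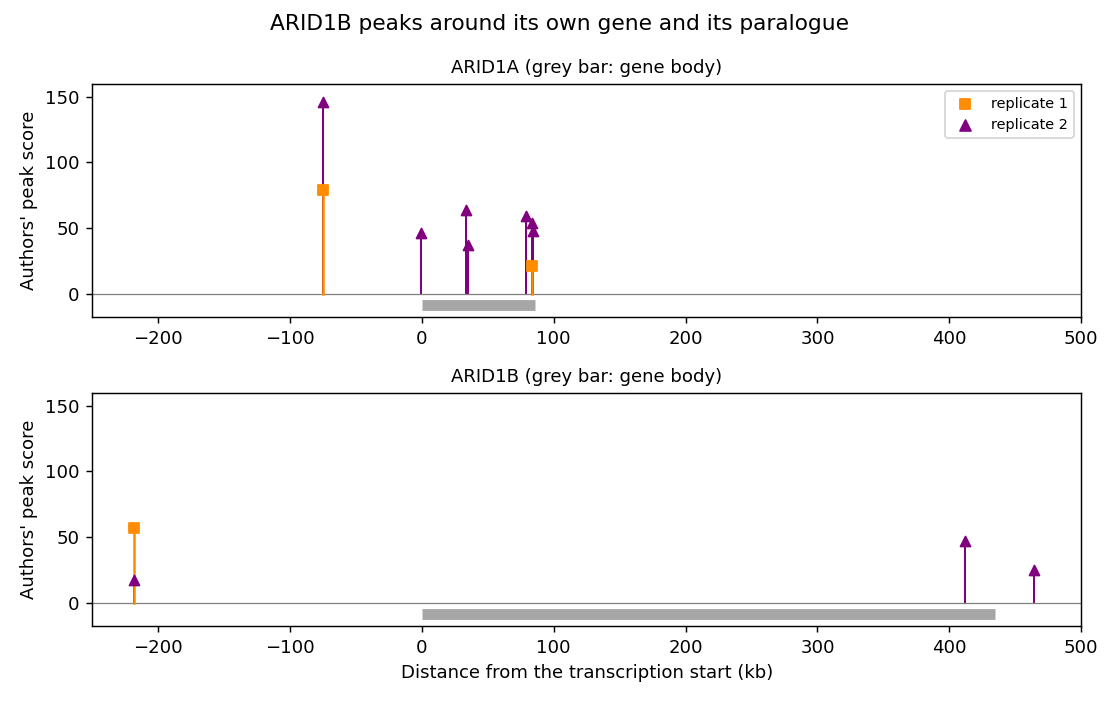
The authors' peak score (vertical axis) is plotted against distance from the transcription start in kb (horizontal axis, same scale in both panels) for ARID1A and ARID1B. Orange squares are replicate 1 peaks, purple triangles replicate 2 peaks, and the grey bar is the gene body. ARID1A carries 6 regions at an end or inside, of which 1 has a replicate 1 peak, and ARID1B carries 1.

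The promoter windows of both genes are shown because a replicate 2 peak reached that of ARID1A (chr1:26695765-26696064, plus strand), while neither of the windows of ARID1B (chr6:156775776-156776075 and chr6:156777128-156777427, plus strand) was overlapped. The peak covered the first 13 bases of the ARID1A window, so most of it lay further upstream. Capitals have the same meaning as above.
ARID1A: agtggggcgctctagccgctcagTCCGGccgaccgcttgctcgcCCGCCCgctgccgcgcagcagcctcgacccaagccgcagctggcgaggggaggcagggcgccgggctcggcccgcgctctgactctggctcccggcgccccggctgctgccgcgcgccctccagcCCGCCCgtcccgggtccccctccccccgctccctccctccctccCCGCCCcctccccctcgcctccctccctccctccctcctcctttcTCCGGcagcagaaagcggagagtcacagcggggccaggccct
ARID1B outermost start: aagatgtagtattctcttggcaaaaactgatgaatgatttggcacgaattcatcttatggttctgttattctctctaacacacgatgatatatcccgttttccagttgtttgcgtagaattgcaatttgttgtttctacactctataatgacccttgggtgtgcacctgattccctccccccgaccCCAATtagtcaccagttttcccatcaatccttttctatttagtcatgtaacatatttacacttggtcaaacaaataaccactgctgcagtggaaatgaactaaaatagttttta
ARID1B second start: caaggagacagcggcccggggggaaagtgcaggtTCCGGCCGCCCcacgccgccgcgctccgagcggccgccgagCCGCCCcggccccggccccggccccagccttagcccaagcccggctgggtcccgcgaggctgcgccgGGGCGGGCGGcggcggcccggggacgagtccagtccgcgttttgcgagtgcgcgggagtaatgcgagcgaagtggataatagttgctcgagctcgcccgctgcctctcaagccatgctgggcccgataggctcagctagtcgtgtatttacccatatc

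The ARID1A window was 78.0% G and C and held 3 GC boxes. The outermost ARID1B window was 37.7% G and C and held a CCAAT match and no GC box. The second ARID1B window was 72.0% G and C and held 4 GC boxes, so the starts of ARID1B differed in composition. The median over all windows was 58.7%.

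Within ARID1B, the peak at chr6:157187371-157187744 scored 47 in replicate 2 (rank 1363) and lay 23.0 kb from the transcription end. The nearest replicate 1 peak was 629.7 kb away. A further replicate 2 peak, at chr6:157240458-157240758 and 29.7 kb past the end, scored 25. It lay inside LOC105378075, a non-coding gene. The shared region before ARID1B, 218.3 kb upstream at chr6:156557331-156557688, scored 57 and 17, and its rank in replicate 2 was 1790 of 1820. The gene of the immunoprecipitated protein was thus accompanied by low-scoring peaks. The shared region nearest before ARID1A was higher. It lay 75.0 kb upstream at chr1:26620596-26621006, with scores of 79 and 146 (ranks 810 and 363), but an end of RPS6KA1, a kinase gene, was closer at 45.6 kb.

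ARID2, the DNA-binding subunit of PBAF, had 1 region, a shared one 114.0 kb from its lower-coordinate end at chr12:45615224-45615700. It scored 204 in replicate 1 (rank 187) and 166 in replicate 2 (rank 291). No other protein-coding gene end was closer. It and the one before ARID1B were the 2 shared flank regions whose nearest gene was a subunit gene. The other PBAF genes, PBRM1 and BRD7 with their bromodomains and PHF10 with its PHD fingers, had no region of either replicate within 250 kb. PHF10 fell just short of that limit, with a shared region of scores 732 and 1038 at 277.9 kb. That region lay closest to WDR27.

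BCL11A and BCL11B encode zinc-finger transcription factors that join BAF and are known for their roles in blood cells and neurons. BCL11B held the highest-scoring shared region at or inside any of the 31 genes. At chr14:99253332-99253706, it scored 199 in replicate 1 (rank 193) and 233 in replicate 2 (rank 144). It lay 18.5 kb inside the 102.9 kb gene from the transcription start. Among the 576 shared regions inside protein-coding genes and away from ends, it ranked 90 by replicate 1 score and 57 by replicate 2 score. BCL11A, of nearly the same length (103.4 kb), had no peak of either replicate inside or within 250 kb, and its nearest region was 1066.7 kb away.

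The ATPase genes, which encode the motors of all 3 complexes, had no region at an end or inside. SMARCA2 had no region within 250 kb. SMARCA4 had 1, at 242.9 kb, close to the limit. That region at chr19:10717526-10718157 scored 990 and 1089 and held rank 3 in both lists, but it lay on an end of DNM2, the gene of a membrane-scission GTPase. SMARCC1 and SMARCC2 encode the scaffold pair. SMARCC1 had no region within 250 kb. SMARCC2 had 2 shared regions in its flank, with scores of 125 and 266 at chr12:56117957-56118345 and of 364 and 601 at chr12:55973652-55974153. The first lay on ends of RPL41 and ZC3H10, 44.0 kb from SMARCC2. The second lay on an end of RAB5B and within 1000 bp of an end of CDK2, 188.2 kb away.

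Of the remaining core genes, SMARCE1 had a shared region 206.8 kb from its transcription end with scores of 53 and 81, which lay 47 bp from an end of TOP2A, a topoisomerase gene. SMARCB1, which anchors BAF to the nucleosome, had a replicate 2 peak of score 37 at 132.8 kb, inside DDTL and beside DDT. It also had a replicate 1 peak of score 21 at 188.8 kb, inside CABIN1. Neither peak was seen in the other replicate. ACTL6A had no region within 250 kb, and its neuronal paralogue ACTL6B had 1 shared region at 56.4 kb, with scores of 133 and 250. It lay on an end of FBXO24 and within 1000 bp of one of LRCH4.

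ACTB, the actin gene whose product is also a subunit, had 3 peaks, all of replicate 2. The nearest, at chr7:5526282-5526599, scored 35 (rank 1615) and lay 549 bp beyond the lower-coordinate end of the gene. It was the member region closest to the 1000 bp limit on the inner side, and the last ARID1A region, at 1731 bp, was the closest on the outer side. By the known direction of ACTB, which is read from the minus strand, this end is the transcription end. The others, with scores of 56 and 87, lay about 100 kb away, near TNRC18. The replicate 1 peak closest to any of them was 1712.9 kb away.

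The remaining paralogue families had few regions. DPF1 had none within 250 kb. DPF2 had 2 peaks of replicate 2 alone, with scores of 96 and 37 at 67.9 and 75.8 kb, the second of them inside the long non-coding RNA gene NEAT1. DPF3 had a replicate 2 peak of score 21 at 13.9 kb before its start, and a shared region with scores of 93 and 99 at 231.0 kb, which was closest to RBM25. Of the BCL7 genes, BCL7A and BCL7C had none, and BCL7B had 1 replicate 2 peak of score 39 at 158.1 kb, inside STX1A. Of the ncBAF genes, BICRA had 1 peak of replicate 1 alone inside the gene, at chr19:47648299-47648507 with a score of 56, and BICRAL a shared region at 21.9 kb with scores of 43 and 76, which lay on PEX39. BRD9 had none, and neither did SS18 or SS18L1.

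**Figure D3:**
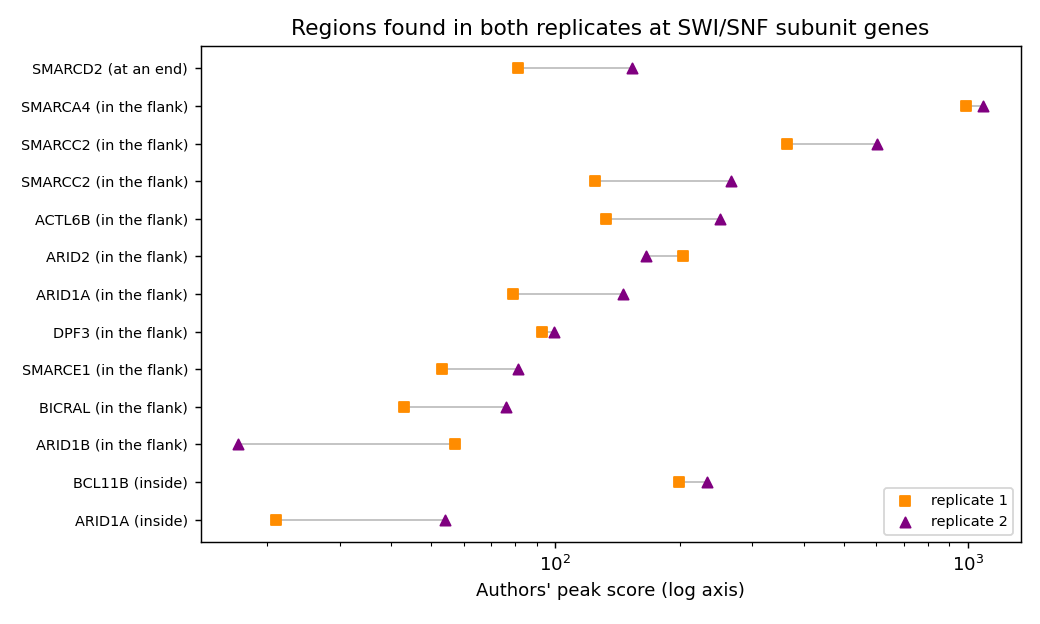
Each row is 1 of the 13 shared regions at the subunit genes, with the gene and the place of the region, and the horizontal log axis gives the authors' peak score. Orange squares are replicate 1 and purple triangles replicate 2. In 11 of 13 rows the triangle lies to the right, and in the rows of ARID2 and ARID1B it lies to the left. The scale of the score is not stated, so each row sets raw scores of different lists side by side.

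Counted together, 31 separate regions lay at, inside or within 250 kb of the 31 genes, of which 3 were at an end, 8 inside and 20 in the flanks. Of the 10 shared flank regions, 6 lay within 1000 bp of an end of another protein-coding gene, and 2 had a subunit gene as their nearest gene. Over all 1312 shared regions on annotated chromosomes, 12.5% lay that close to an end of a protein-coding gene. This share is not limited to regions near genes, although 1196 shared regions lay inside or within 250 kb of a protein-coding gene. The 4 flank regions with the highest replicate 2 scores lay on an end of DNM2, RAB5B, RPL41 and FBXO24. Subunit genes were the nearest gene to a shared region in 5 of 31 cases (ARID1A, ARID1B, ARID2, BCL11B and SMARCD2), against 4.95% of all protein-coding genes. The median length of the subunit genes was 51.0 kb and that of all protein-coding genes 24.5 kb. Whether gene length bears on the counts was not tested. Per Mb of gene body, the subunit genes had 1.15 shared regions (3 in 2.61 Mb) and all protein-coding genes 0.540. Per Mb of gene body and flanks of 250 kb it was 0.718 (13 in 18.1 Mb) for the subunit genes and 0.497 for all protein-coding genes. A set of 38 genes of other remodellers had 0.659 (15 in 22.8 Mb), close to the subunit genes. When only regions nearest to a subunit gene were counted, the subunit value was 0.276 per Mb. That restriction was not applied to the other gene sets, so their values cannot be set beside it.

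The replicates did not contribute equally. Of the 31 regions, 13 were shared, 3 belonged to replicate 1 alone and 15 to replicate 2 alone (48.4%), whereas 22.0% of all 2291 regions belonged to replicate 2 alone. At an end or inside, 7 of 11 were of replicate 2 alone, against 22.8% of the 1322 regions at an end or inside any protein-coding gene. Leaving out ARID1A, it was 2 of 5. By gene, 7 of 31 had a peak of replicate 2 alone within 250 kb, against 13.4% of all protein-coding genes, and 3 of 31 had one of replicate 1 alone, against 7.00%. Raw scores of the 13 shared regions were higher in replicate 2 in 11 cases, where 50.9% of all shared regions scored higher in replicate 2. The score orders peaks only within its own list, so this compares numbers whose scales may differ. By rank, the region near SMARCA4, with scores of 990 and 1089, stood equal at rank 3 in both lists. The regions of ARID2 (ranks 187 and 291) and before ARID1B (ranks 1157 and 1790) stood lower in replicate 2. All other shared regions stood higher in the replicate 2 list than in the replicate 1 list. Ranks were not compared in this way over all shared regions. The 15 peaks of replicate 2 alone had scores from 21 to 96 with a median of 46, and all regions of replicate 2 alone had a median of 50.

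**Figure D4:**
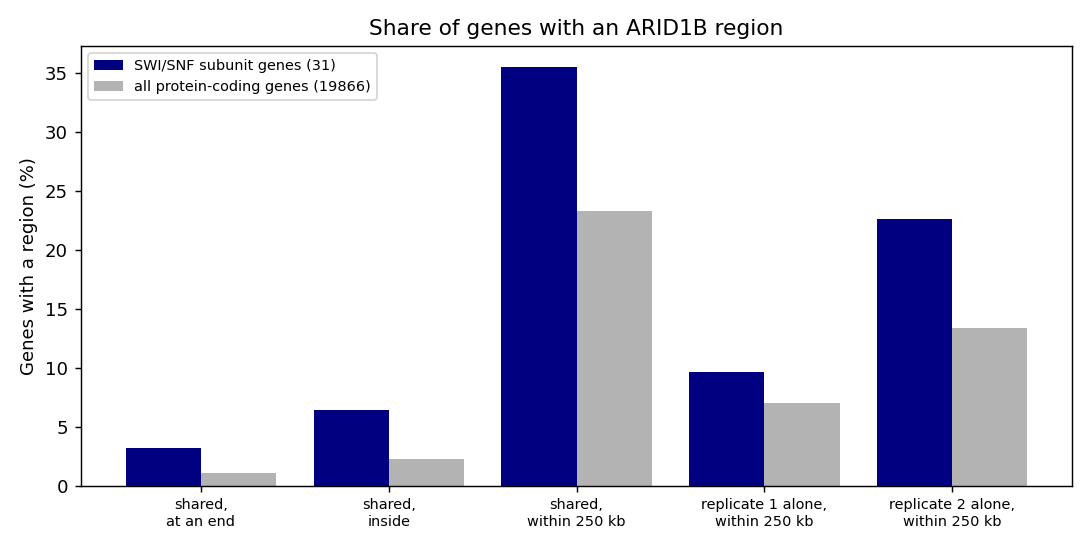
Bars give the percentage of genes with an ARID1B region, for the 31 subunit genes in blue and for all 19866 protein-coding genes in grey, by place and by replicate. The subunit genes stand at 3.23% against 1.05% for a shared region at an end, 35.5% against 23.3% for one within 250 kb, and 22.6% against 13.4% for a peak of replicate 2 alone.

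The list of replicate 2 taken by itself reached an end of 3 subunit genes, SMARCD2, ARID1A and ACTB, where 1.80% of protein-coding genes were reached. The list of replicate 1 reached 1, SMARCD2, against 1.14%. The other remodeller genes, 38 from the CHD, ISWI and INO80 families and related enzymes, had 0 members with a region of either replicate at an end or inside. Within 250 kb, 11 of the 38 (28.9%) had a shared region, beside 11 of 31 subunit genes (35.5%) and 23.3% of all protein-coding genes. The share of subunit genes with a peak of either replicate at an end or inside was 6 of 31, against 5.33% of all protein-coding genes.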

How the data were processed

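ARID1B ChIP-seq of HEK293FRT cells was analysed from the peak lists of 2 replicates. The submitters' processing notes name the build hg38, MACS2 2.1.2, Bowtie2 2.3.4.1 and bcl2fastq 2.20.0.422. Peak thresholds, duplicate handling, use of the input and the antibody are details not given in the sources used here. The score per peak is as the authors deposited it, and it orders peaks within a list only. The lists carry no read counts, so depth is unknown and no interval was computed.

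Gene positions came from a RefSeq gene table of GRCh38.p14. Of its genes, 58961 on chromosomes 1 to 22, X and Y were kept, 19866 of them protein-coding, and 831 others were left out. Strand and transcription starts came from a RefSeq promoter table, which held 26 of the 31 subunit genes. Exons and introns were not separated, and the nearest gene is that with the nearest annotated end. Regions were counted per gene with Python 3.11, and the same counts over all protein-coding genes were set beside them. No test was made, since there is 1 group and the members and lists were chosen with earlier results of these data known. Every subunit gene is accounted for, and other remodeller genes were to be named only with a shared region at an end. The comparison of protein sequences that had been planned was not made. Placement was tested on simulated data, where 200 of 200 planted regions were read back. Alternatives varied overlap, windows, score minimum and replicates.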

Additional observations from a re-analysis of the deposited data

How the results depend on the processing

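No paired analysis was possible because the study has a single ChIP group. Of 37 recounts of the 5 summary values, 27 stayed within 1.5 times the value reported and 10 moved. The share of all protein-coding genes moved as well and is given beside each. The number of genes with a shared region at an end, 1, was 3 without replicate 1 (all genes 1.80%), 1 without replicate 2 (1.14%) and 2 with a window of 5000 bp (1.71%), where the shared ARID1A region counted. The number with a shared region inside, 2, was 1 when each list was limited to scores from its median upward (1.15%), 1 with a window of 5000 bp (2.00%), and 3 without replicate 1 (2.85%) or replicate 2 (3.01%). The 11 genes with a shared region within 250 kb became 6 within 100 kb (11.8%) and 5 when the region had to be nearest to the subunit gene. For all protein-coding genes the nearest-gene share, 4.95%, was counted without the 250 kb limit. Without that limit the subunit count was also 5 of 31. The 3 genes with a peak of either replicate at an end (1.89%) became 1 with that score limit (0.936%) and ranged from 1 to 3 with a replicate left out, so ARID1A and ACTB rest on replicate 2. The density of 0.718 shared regions per Mb (all genes 0.497) was 1.55 without replicate 1 (0.697), 0.884 without replicate 2 (0.678) and 0.497 with the score limit (0.241). It fell to 0.276 when only regions nearest to a subunit gene counted, a restriction with no counterpart over all genes. The regions of SMARCD2, BCL11B and ARID2 kept their count of 1 under 50% reciprocal overlap, centres within 200 bp, the score limit and either list alone. ARID1A had 7 regions in the replicate 2 list and 2 in the replicate 1 list. Depth is unknown, so a missing peak does not show that ARID1B is absent.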
